A study of Mus musculus with 8 samples.

Results

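The Hox genes were measured as all probe sets of an Affymetrix mouse array whose single gene symbol was Hoxa, Hoxb, Hoxc or Hoxd followed by a number from 1 to 13, with antisense transcripts and probe sets of several genes left out. This gave 48 probe sets for 33 genes, of 45101 probe sets and 18194 named genes on the array. RNA was compared between 3 mouse cell lines and a co-culture, with 2 arrays in each of 4 groups. OP9 is a stromal line that the labels describe as bone marrow stroma of strain B6C3F1. The paper also describes OP9 cells infected with a retrovirus for the red protein mStrawberry, so that they could be sorted away from other cells. It names these for the co-culture and its control. The sample titles say only OP9, so whether the OP9 arrays hold infected cells is not given by them. In the co-culture group the OP9 cells had been kept for 7 days with 230-238, a pre-B cell line, and their control, the OP9 group, is called a culture in the labels, while the paper speaks of conditioned medium for control cells. NIH3T3 is labelled a fibroblast line from mouse embryo and MC3T3 an osteoblast-like line, both of strain Balb/c, and both were grown in the same medium, another than that of OP9 cells. Line, strain and medium therefore cannot be told apart between OP9 and either of these lines. NIH3T3 and MC3T3 cells share the medium and, by the labels, the strain. The strain labels were not checked, so line and strain are not taken as separate there either. The second MC3T3 array is described as sorted cells and the first as a culture.

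Hox genes encode homeodomain transcription factors that lie in 4 clusters and give cells along the body axis their position. Genes at the low-numbered end of a cluster are switched on early and towards the head, and genes at the high-numbered end late and towards the tail and the limb tips. Connective tissue cells keep part of the Hox pattern of their site of origin in culture, and the cranial neural crest that builds the face and the front of the skull vault is known for lacking Hox expression. OP9 and MC3T3 are both lines that were set up from the skull vault of newborn mice, although the labels give bone marrow for OP9.

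RefSeq lists 39 Hox genes of the mouse in these clusters, on chromosomes 6, 11, 15 and 2 for Hoxa, Hoxb, Hoxc and Hoxd, and in each cluster the genes stand in the order of their numbers. The other 6 genes were not analysed here. Promoter windows of RefSeq on build GRCm38.p6 matched 19 of the 33 genes, and those of Hoxa2, Hoxa5 and Hoxd9 are printed as examples of the patterns of level found here, a gene low in MC3T3 cells, a gene graded over the lines and a gene high in NIH3T3 cells. Each window holds the 250 bases before the annotated start, 5′ to 3′ on the strand of the gene. Capitals mark matches, on either strand, to CCAAT, to TATAAA, to the homeodomain core TAATTA, to TGATNNAT, a sequence that PBX and HOX proteins bind together, and to TGACAG, which MEIS proteins bind.
Hoxa2, chr6:52164832-52165081, minus strand: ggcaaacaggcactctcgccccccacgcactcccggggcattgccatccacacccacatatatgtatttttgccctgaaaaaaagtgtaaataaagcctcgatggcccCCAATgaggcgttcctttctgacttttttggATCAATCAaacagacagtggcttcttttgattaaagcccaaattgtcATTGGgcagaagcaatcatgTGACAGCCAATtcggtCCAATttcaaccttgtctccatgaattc
Hoxa5, chr6:52204588-52204837, minus strand: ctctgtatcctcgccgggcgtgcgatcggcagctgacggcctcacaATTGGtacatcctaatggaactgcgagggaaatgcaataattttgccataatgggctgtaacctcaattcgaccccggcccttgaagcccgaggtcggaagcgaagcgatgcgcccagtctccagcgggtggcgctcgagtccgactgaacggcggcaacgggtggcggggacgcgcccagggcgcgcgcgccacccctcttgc
Hoxd9, chr2:74697513-74697762, plus strand: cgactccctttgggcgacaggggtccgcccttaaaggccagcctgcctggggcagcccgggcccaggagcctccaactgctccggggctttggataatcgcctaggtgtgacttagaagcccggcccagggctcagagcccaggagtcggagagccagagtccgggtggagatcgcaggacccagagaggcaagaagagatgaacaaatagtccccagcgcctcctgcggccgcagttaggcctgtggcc
The Hoxa2 window held 4 matches to CCAAT, 1 to TGATNNAT and 1 to TGACAG, the last of which stands directly before a CCAAT. The Hoxa5 window held 1 match to CCAAT and 28 CpG dinucleotides. The Hoxd9 window held none of these matches and 13 CpG dinucleotides. Over all 27018 promoter windows of the same length, 34.5% held CCAAT, 7.92% TGATNNAT and 15.97% TGACAG, against 52.6%, 10.5% and 10.5% of the 19 Hox genes. TATAAA stood in 12.97% and TAATTA in 4.90% of all windows, and each in 5.26% of those of the Hox genes. The median number of CpG dinucleotides was 6 over all windows and 12 over those of the Hox genes. A match describes the letters in a window and says nothing of binding, and no array value was measured at these windows.

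A gene was called expressed in a group where its probe set reached a normalized intensity of 100 on both arrays, 100 being the level that the study uses, and where a gene had several probe sets the one with the highest mean over the 8 arrays stood for it. In OP9 cells 6 of 33 Hox genes were expressed, Hoxa2, Hoxa3, Hoxa5, Hoxa7, Hoxa10 and Hoxc9, which is 18.2% against 49.6% of all named genes. The same 6 genes were expressed in OP9 cells with 230-238, again 18.2% against 49.3%. In NIH3T3 cells 8 were expressed, Hoxa2, Hoxa3, Hoxa5, Hoxa7, Hoxb13, Hoxc9, Hoxd8 and Hoxd9, which is 24.2% against 46.2%. In MC3T3 cells 3 were expressed, Hoxa5, Hoxa10 and Hoxc9, which is 9.09% against 48.8%. By cluster, 5 of 9 measured Hoxa genes were expressed in at least 1 group, and 1 of 9 Hoxb genes, 1 of 7 Hoxc genes and 2 of 8 Hoxd genes. By number, none of the 7 measured genes numbered 1 to 3 was expressed in MC3T3 cells, whereas 2, Hoxa2 and Hoxa3, were in each of the other groups. For Hoxa3 this rests on the probe set 1427433_s_at. By its probe set 1452421_at, Hoxa3 would not count as expressed in OP9 cells, at 84.4 and 86.7. With 230-238 it would not count either, at 106 and 82.9. Of the 14 genes numbered 9 to 13, 2 were expressed in OP9 and in MC3T3 cells and 3 in NIH3T3 cells. Hoxa5 and Hoxc9 were expressed in all 4 groups, Hoxc9 by 1 probe set with nearly the same level everywhere.

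**Figure D1:**
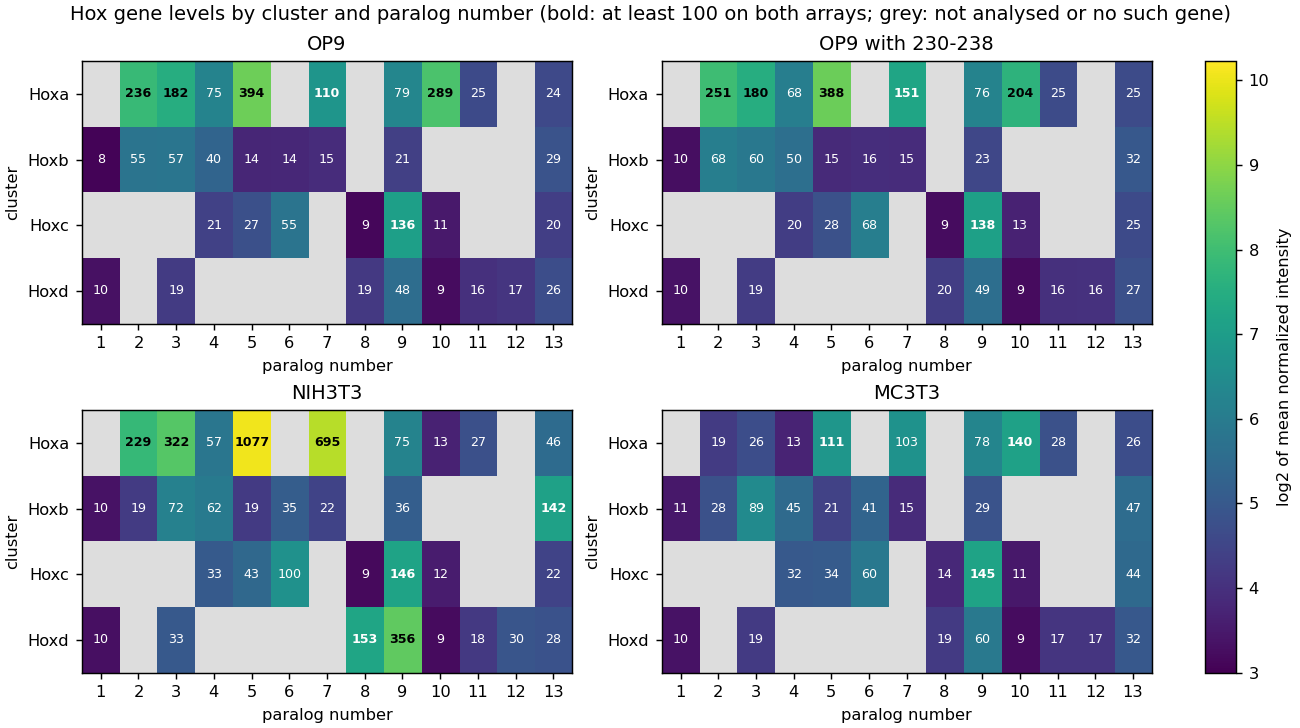
Mean normalized intensity of the 33 Hox genes over the 2 arrays of each group, with the cluster on the vertical axis, the paralog number on the horizontal axis, and colour giving the log2 of the mean. Bold numbers mark the genes that reached 100 on both arrays, 6 in OP9 cells with and without 230-238, 8 in NIH3T3 and 3 in MC3T3 cells, and levels are to be compared between panels and not between genes.

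The array medians over all probe sets lay between 41.77 and 44.99. Between the 2 arrays of a group the median absolute log2 difference of a tested gene was 0.069 in OP9 cells with and without 230-238, 0.088 in MC3T3 and 0.143 in NIH3T3 cells. The arrays are labelled biological replicates without word of separate cultures, and p-values therefore reflect array-to-array spread that may be technical. Of the markers of other cells, the 7 of endothelium were below 100 in all groups. The list of stromal and adipocyte precursor markers had 9 of 10 expressed in OP9 and 5 in NIH3T3 and MC3T3 cells. It includes the adipocyte genes Adipoq, Pparg, Cebpa and Fabp4. Of 16 measured pre-B and leukocyte markers, 5 were expressed in NIH3T3 cells, with a summed level of 1649 to 1747, 2 in OP9 cells, at 827 to 842, and none in MC3T3 cells, at 646 to 657. The macrophage marker Cd68 was 24.1-fold higher in NIH3T3 than in MC3T3 cells (adjusted p = 3.21e-09 from limma). Lyz2, the only other macrophage marker tested, went the opposite way. It read 108 and 109 on the MC3T3 arrays against 37.8 and 35.7 on the NIH3T3 arrays, a 2.95-fold gap for which limma gave an adjusted p of 3.3e-06. The macrophage list thus had no common direction, and the part of all these markers in the Hox differences was not tested. In MC3T3 cells 2 of 6 measured osteoblast markers were expressed, Dmp1 at 970 and 1142 and Sparc at 7405 and 6871. Sp7, Alpl, Ibsp and Phex were below 100 on both arrays. Dmp1 read 61.9 or below in the other groups, but Sparc was higher in OP9 cells, at 9007 and 8693. Phex was lowest in MC3T3 cells, at 29.7 and 28.6, with 131 and 117 in OP9 and 109 and 159 in NIH3T3 cells. The summed level of the 6 markers was 8146 to 8513 in MC3T3, 9015 to 9325 in OP9 and 5759 to 5855 in NIH3T3 cells. The tests used limma on log2 values of the 10084 genes that reached 100 on 2 or more of the 8 arrays. Called genes had a minimum difference of 2-fold and an adjusted p below 0.05. Of the 33 Hox genes 9 passed that filter, the same 9 that were expressed somewhere, and the other 24 were not tested. Hoxb13, Hoxd8 and Hoxd9 passed because of NIH3T3 cells alone and so had to be higher there, which is why counts over the 9 are given as a description. The comparisons of OP9 with NIH3T3, with MC3T3 and with the co-culture share the OP9 arrays.

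Hoxa2, which patterns the hindbrain and the second pharyngeal arch, was expressed in OP9 and NIH3T3 cells and far below 100 in MC3T3 cells. In bulk RNA such a gap can be fewer expressing cells or less RNA per cell, which cannot be told apart. Its levels were 243 and 228 on the OP9 arrays, 236 and 265 with 230-238, 212 and 245 in NIH3T3 cells, and 18.3 and 20.3 in MC3T3 cells. The OP9 and NIH3T3 arrays overlapped, and both MC3T3 arrays lay far below all others. OP9 exceeded MC3T3 cells by 3.61 ± 0.10 on the log2 scale (SE), or 12.2-fold (adjusted p = 7.46e-08 from limma), while the difference of OP9 from NIH3T3 cells was 0.05, with a 95% interval from -0.20 to 0.29 (adjusted p = 0.70 from limma).

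Hoxa3, which is needed for the thymus, the parathyroids and the neck, was high in NIH3T3, lower in OP9 and lowest in MC3T3 cells. The probe set with the highest mean read 185 and 179 in OP9 cells, 306 and 338 in NIH3T3 cells and 26.6 and 25.2 in MC3T3 cells, with no overlap between lines. OP9 exceeded MC3T3 cells 7.03-fold (log2 2.81 ± 0.08, SE, adjusted p = 5.88e-08 from limma), and NIH3T3 exceeded OP9 cells 1.77-fold, which is below the minimum fold (adjusted p = 2.65e-05 from limma). The gap to MC3T3 cells rested on this probe set, which carries the suffix _s_at and can bind several transcripts. Another Hoxa3 probe set, 1452421_at, read 84.4 and 86.7 in OP9 cells, 299 and 257 in NIH3T3 cells and 84.9 and 60.9 in MC3T3 cells. With _x_at and _s_at probe sets left out, the log2 excess of OP9 over MC3T3 cells was 0.25 (adjusted p = 0.242 from limma), and the difference of OP9 from NIH3T3 cells became -1.69 and was called (adjusted p = 5.19e-05 from limma). The remaining Hoxa3 probe sets, 1431392_at and 1429398_at, were below 40 on all 8 arrays.

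Hoxa5, which acts in the lung, the diaphragm and the lower neck vertebrae, was the Hox gene expressed everywhere with large differences between lines. It read 411 and 378 in OP9 cells, 405 and 371 with 230-238, 1167 and 986 in NIH3T3 cells, and 108 and 114 in MC3T3 cells. The 3 lines did not overlap, with NIH3T3 highest and MC3T3 just above 100. NIH3T3 exceeded OP9 cells 2.72-fold (adjusted p = 5.56e-06 from limma) and OP9 exceeded MC3T3 cells 3.54-fold (adjusted p = 2.38e-06 from limma). The order was the same on the Hoxa5 probe set 1443803_x_at, which read 180 and 188 in OP9, 498 and 402 in NIH3T3 and 114 and 119 in MC3T3 cells, with smaller gaps. On that probe set OP9 exceeded MC3T3 cells 1.58-fold, which is below the minimum fold.

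Hoxa7, a gene of the thoracic segments, was high in NIH3T3 cells and near the expression level of 100 elsewhere. It read 764 and 625 in NIH3T3 cells, 115 and 106 in OP9 cells, and 109 and 97.0 in MC3T3 cells. NIH3T3 exceeded OP9 cells 6.28-fold (log2 difference of OP9 from NIH3T3 -2.65 ± 0.11, SE, adjusted p = 3.5e-07 from limma). The OP9 and MC3T3 arrays overlapped and differed by 0.10 on the log2 scale, with a 95% interval from -0.16 to 0.36 (adjusted p = 0.449 from limma). MC3T3 cells had 1 array on either side of 100, so that Hoxa7 did not count as expressed there.

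Hoxa10, a gene of the posterior trunk that is required in the uterus, ran the other way. It read 301 and 276 in OP9 cells, 203 and 206 with 230-238, 152 and 129 in MC3T3 cells, and 15.0 and 10.8 in NIH3T3 cells. No 2 groups overlapped, and NIH3T3 cells lay near the bottom of the scale. OP9 exceeded NIH3T3 cells 22.6-fold (log2 4.50 ± 0.15, SE, adjusted p = 1.18e-07 from limma) and MC3T3 exceeded NIH3T3 cells 10.98-fold (adjusted p = 5.57e-07 from limma). OP9 exceeded MC3T3 cells 2.06-fold (adjusted p = 0.000532 from limma), just past the minimum fold. That last call was lost without the first OP9 array, at a log2 difference of 0.98, and without the second MC3T3 array, the one described as sorted cells, at 0.93. The other Hoxa10 probe set, 1446408_at, read 12.6 to 16.5 on all 8 arrays.

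**Figure D2:**
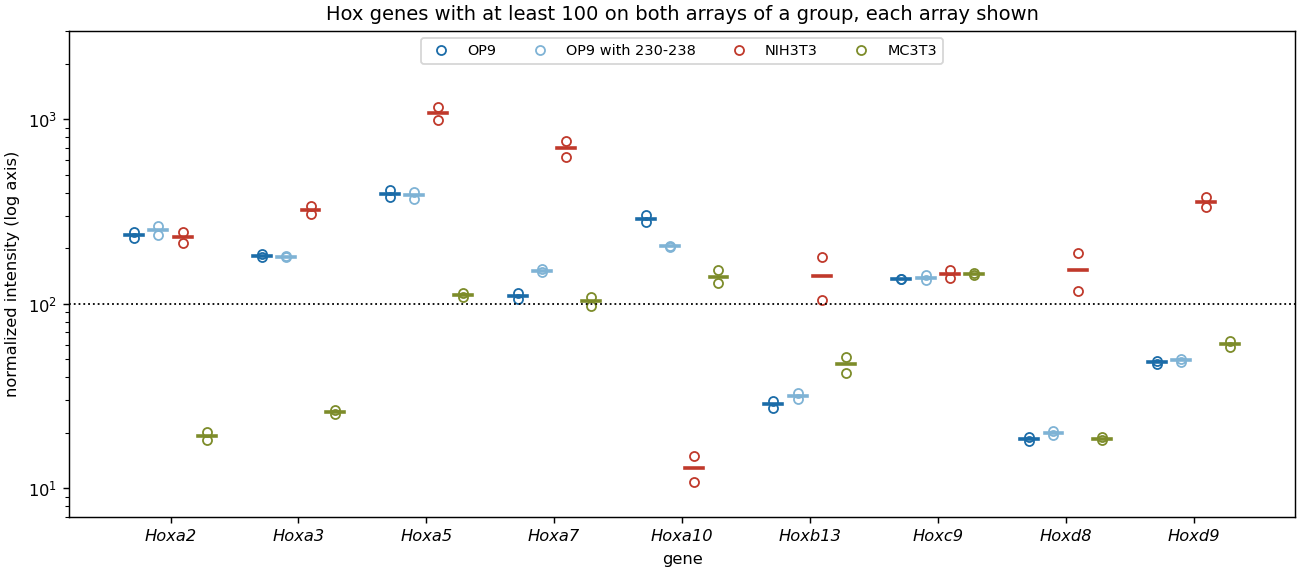
Normalized intensity on a log axis of the 9 Hox genes expressed in at least 1 group, with a circle for each array, a bar for the mean of the 2 arrays and a dotted line at 100. Hoxa10 lies at 10.8 and 15.0 in NIH3T3 cells and at 129 or above elsewhere, Hoxd9 lies at 334 and 378 in NIH3T3 cells and at 62.8 or below elsewhere, and Hoxc9 lies between 134 and 153 on all arrays.

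The genes of the other clusters that were expressed belonged to NIH3T3 cells, apart from Hoxc9. Hoxd9, Hoxd8 and Hoxb13 passed the filter through NIH3T3 cells alone, so their p-values against that line are given as a description. Hoxd9, which helps to pattern the lumbar and sacral vertebrae and the upper limb, read 334 and 378 in NIH3T3 cells, 47.3 and 48.9 in OP9 cells, and 58.0 and 62.8 in MC3T3 cells. Both NIH3T3 arrays were above all others, by 7.39-fold over OP9 cells (adjusted p = 5.48e-08 from limma). MC3T3 cells lay 1.25-fold above OP9 cells without overlap, with both lines below 100. Its neighbour in the cluster, Hoxd8, read 118 and 188 in NIH3T3 cells, 18.1 and 18.9 in OP9 cells, and 18.2 and 18.9 in MC3T3 cells. NIH3T3 exceeded OP9 cells 8.04-fold (adjusted p = 2.91e-06 from limma), and OP9 and MC3T3 cells overlapped at the bottom of the scale. A second Hoxd8 probe set, 1433638_s_at, read 77.5 and 69.6 in NIH3T3 cells and 10.3 to 13.6 on the other arrays, which is the same direction at levels below 100.

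Hoxb13, which acts in the prostate and the tail, read 178 and 105 in NIH3T3 cells, 29.8 and 27.3 in OP9 cells, and 51.7 and 42.3 in MC3T3 cells. It was the tested Hox gene with the largest gap between the 2 NIH3T3 arrays, 0.76 on the log2 scale, and it was the only expressed Hoxb gene of 9 measured. NIH3T3 exceeded OP9 cells 4.80-fold (adjusted p = 4.11e-05 from limma) and MC3T3 cells 2.93-fold (adjusted p = 0.000397 from limma). MC3T3 cells lay above OP9 cells without overlap, at a log2 difference of OP9 from MC3T3 of -0.71, below the minimum fold (adjusted p = 0.0236 from limma). With values under 100 raised to 100, which takes out differences at levels counted as not expressed, the differences of OP9 from NIH3T3 cells became -0.45 for Hoxb13 and -0.57 for Hoxd8, neither of them called.

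Hoxc9, a gene of the thoracic vertebrae and of spinal motor neurons, was at nearly the same level everywhere. Its neighbours in the cluster were low on all arrays, Hoxc8 at 8.23 to 15.9 and Hoxc10 at 10.4 to 13.7. Hoxc9 rests on 1 probe set, 1449867_at, and whether its flat signal is Hoxc9 RNA was not tested. It read 136 and 136 in OP9 cells, 142 and 134 with 230-238, 153 and 138 in NIH3T3 cells, and 144 and 147 in MC3T3 cells. The log2 difference between MC3T3 and NIH3T3 cells lay in a 95% interval from -0.18 to 0.17, that of OP9 from NIH3T3 cells in one from -0.28 to 0.08 and that of OP9 from MC3T3 cells in one from -0.28 to 0.08, and none was called (adjusted p = 0.982, 0.252 and 0.282 from limma).

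Counted over the 9 tested genes, OP9 and NIH3T3 cells differed in 6, against 30.8% of all tested genes. Hoxa10 was the 1 gene higher in OP9, where the share over all genes was 20.5%, and Hoxa5, Hoxa7, Hoxb13, Hoxd8 and Hoxd9 were the 5 higher in NIH3T3 cells, where it was 10.3%. OP9 and MC3T3 cells differed in 4, against 19.9%, and Hoxa2, Hoxa3, Hoxa5 and Hoxa10 were all higher in OP9, where the share over all genes was 10.5%, while none was higher in MC3T3 cells, against 9.41%. MC3T3 and NIH3T3 cells differed in 8, against 27.4%, with Hoxa10 higher in MC3T3, against 17.8%, and the other 7 higher in NIH3T3 cells, against 9.65%. Those 7 were Hoxa2, Hoxa3, Hoxa5, Hoxa7, Hoxb13, Hoxd8 and Hoxd9, and Hoxc9 was not called. Hoxb13, Hoxd8 and Hoxd9 passed the filter through NIH3T3 cells alone and had to be higher there. Hoxa2 and Hoxa3 passed it only through groups other than MC3T3 cells, and no Hox gene passed through MC3T3 cells alone. With no filter, Hoxa4 was added as higher in OP9 than in MC3T3 cells, and Hoxb6 and Hoxc13 as higher in MC3T3 cells. The counts and medians between lines, those of OP9 and MC3T3 cells included, therefore describe the 9 genes and are no test against the shares. The median log2 difference over the 9 genes was -1.45 for OP9 minus NIH3T3 cells, 0.10 for OP9 minus MC3T3 cells and -2.75 for MC3T3 minus NIH3T3 cells, beside 0.16, 0.03 and 0.12 over all genes tested. Many of these folds are against a level below 100, where background makes up part of the signal, so that their size depends on the background.

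**Figure D3:**
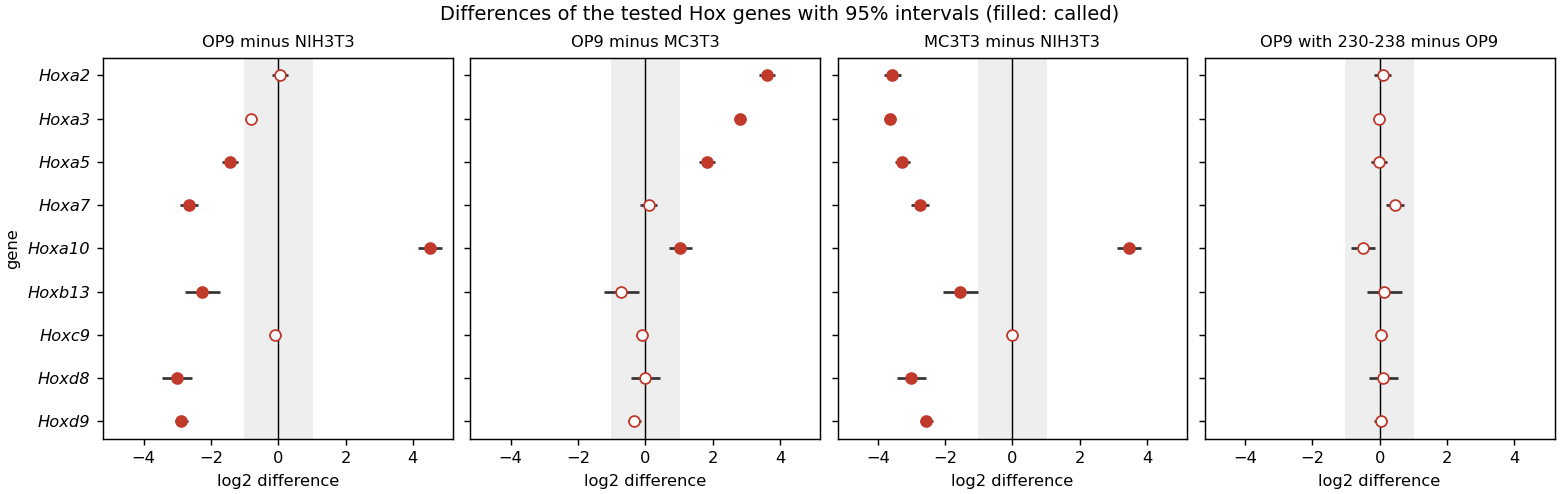
Log2 differences of the 9 tested Hox genes in 4 comparisons, with 95% intervals from limma, filled circles for called genes and a grey band for differences below 2-fold. Called genes number 6 for OP9 minus NIH3T3, 4 for OP9 minus MC3T3, 8 for MC3T3 minus NIH3T3 and 0 for the co-culture, whose points lie between -0.50 and 0.46.

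The co-culture asked whether contact with pre-B cells changes the stromal cells, and the 9 tested Hox genes stayed within 2-fold in OP9 cells. By limma none of the 9 genes was called, against 5.67% of all genes tested, 2.71% higher and 2.97% lower with 230-238. With so low a share, the absence of calls among 9 genes does not set the Hox genes apart. Of the 9, 2 had an unadjusted p below 0.05, where the share over all genes was 50.4%, and the same 2 had an adjusted p below 0.05, where it was 42.8%. These were Hoxa7, at 155 and 148 with 230-238 against 115 and 106, and Hoxa10, at 203 and 206 against 301 and 276. The arrays did not overlap for either gene. Hoxa7 was 1.37-fold higher with 230-238 (95% interval of the log2 difference 0.20 to 0.72, adjusted p = 0.0129 from limma) and Hoxa10 was 1.41-fold lower (95% interval -0.85 to -0.14, adjusted p = 0.0332 from limma). Hoxa3, Hoxa5 and Hoxc9 had intervals from -0.19 to 0.16, from -0.26 to 0.21 and from -0.15 to 0.21 on the log2 scale. The summed level of 16 pre-B and leukocyte markers was 827 to 842 without and 1201 to 1230 with 230-238, and 3 of the 16 were expressed with and 2 without. Of the 7 tested, 1 was called, higher with 230-238, and 6 were not, beside 2.71% of all genes called as higher. An unadjusted p below 0.05 in limma was found for 4 of the 7, against 50.4% of all genes. The called marker was Coro1a, which read 116 and 125 with and 25.9 and 23.9 without 230-238. Ptprc, named after its values were seen, read 34.6 and 31.1 with and 8.93 and 8.58 without, below 100 throughout. The part of these markers in the Hox values was not tested.

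The 24 Hox genes that were expressed in no group read between 8.22 and 112. Of these, 16 were below 50 on all 8 arrays, namely Hoxa11, Hoxb1, Hoxb5, Hoxb6, Hoxb7, Hoxb9, Hoxc4, Hoxc8, Hoxc10, Hoxc13, Hoxd1, Hoxd3, Hoxd10, Hoxd11, Hoxd12 and Hoxd13. The other 8 were Hoxa4, Hoxa9, Hoxa13, Hoxb2, Hoxb3, Hoxb4, Hoxc5 and Hoxc6. Those next to the level of 100 were Hoxc6, at 112 and 89.1 in NIH3T3 cells, and Hoxb3, at 98.9 and 78.3 in MC3T3 cells. The untested Hoxd genes, 6 of 8 measured, did not exceed 35.3 on any array by the probe sets that stood for them. Probe sets assigned to both Hoxd4 and Hoxd3 read higher in NIH3T3 cells and are given at the end.

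Among the genes below 100, a few named after their values were seen had separate levels in the lines. Hoxa4, which lies between Hoxa3 and Hoxa5 in the cluster, read 65.0 and 85.0 in OP9, 58.8 and 55.2 in NIH3T3, and 12.7 and 13.8 in MC3T3 cells. As for Hoxa2, both MC3T3 arrays were the lowest. Hoxb2 read 59.2 and 51.1 in OP9 cells, 61.2 and 74.9 with 230-238, 20.8 and 17.5 in NIH3T3 cells, and 27.7 and 27.9 in MC3T3 cells, so OP9 cells were highest with or without 230-238. Hoxa9, a gene of the posterior trunk that is also used by blood stem cells, depended on the probe set. The one with the highest mean, 1421579_at, read 66.6 to 89.8 on all 8 arrays with the lines overlapping. The other, 1455626_at, read 110 and 99.5 in OP9 cells, 98.2 and 92.0 with 230-238, 36.3 and 39.8 in MC3T3 cells, and 12.5 and 11.2 in NIH3T3 cells. On that probe set the order of the lines was that of Hoxa10, the next measured gene of the cluster.

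**Figure D4:**
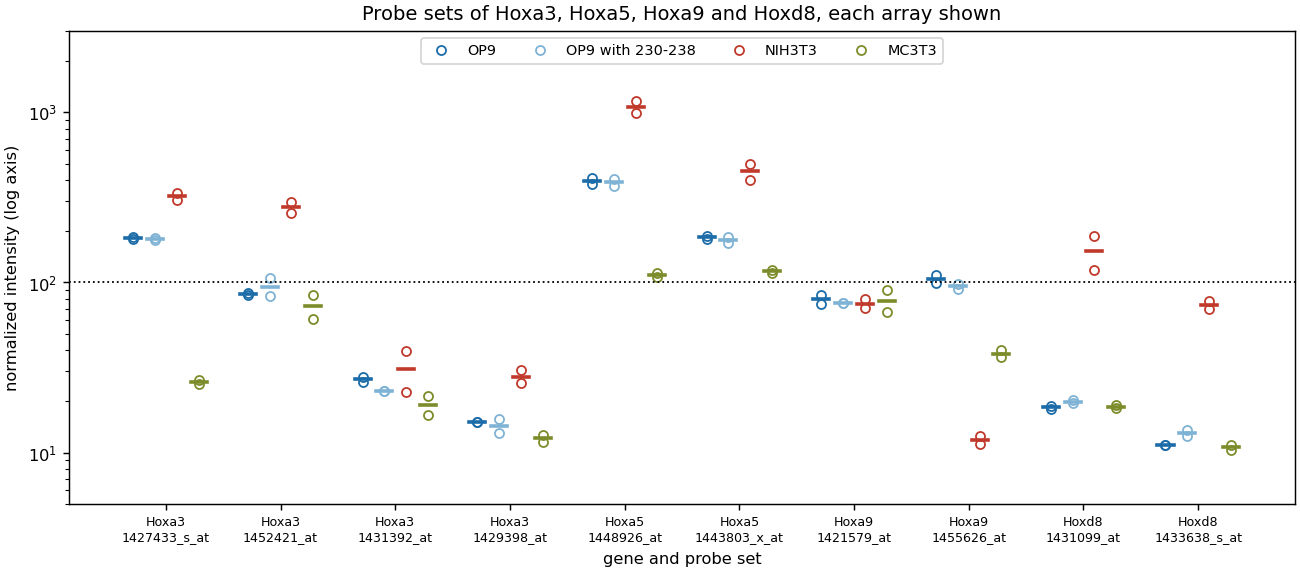
Normalized intensity on a log axis of the probe sets of Hoxa3, Hoxa5, Hoxa9 and Hoxd8, with a circle for each array, a bar for the mean of the 2 arrays and a dotted line at 100. The 2 probe sets of Hoxa9 differ in pattern, 1 flat at 66.6 to 89.8 and 1 ranging from 11.2 in NIH3T3 to 110 in OP9 cells, whereas both of Hoxa5 and both of Hoxd8 are highest in NIH3T3 cells.

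Hox proteins bind DNA together with PBX and MEIS proteins, homeodomain cofactors of the TALE class. Of 9 TALE genes tested, OP9 cells had 3 higher and 2 lower than NIH3T3 cells, where 20.5% and 10.3% of all tested genes were, and 2 higher than MC3T3 cells, where 10.5% were. The median log2 difference of the 9 was 0.33 and 0.70 in these comparisons, beside 0.16 and 0.03 over all genes. Meis1 read 246 and 265 in OP9 cells, 165 and 180 in NIH3T3 cells, and 50.0 and 50.2 in MC3T3 cells, a 5.09-fold difference between OP9 and MC3T3 cells (adjusted p = 1.42e-07 from limma). Meis2 read 1473 and 1303 in OP9 cells, 228 and 315 in NIH3T3 cells, and 381 and 400 in MC3T3 cells, a 5.17-fold gap between OP9 and NIH3T3 cells (adjusted p = 2.54e-06 from limma). Tgif1, a repressor of the same class, stood 3.39-fold above OP9 in NIH3T3 cells (adjusted p = 4.03e-07 from limma). In the co-culture 1 of the 9 TALE genes was called as higher, against 2.71% of all genes, and 1 gene of 9 does not set the list apart. It was Pknox2, 2.11-fold higher with 230-238 (adjusted p = 0.00217 from limma).

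Polycomb proteins keep Hox genes silent and Trithorax proteins keep them active. Of 29 Polycomb group genes tested, OP9 cells had 1 higher and 1 lower than NIH3T3 cells, against 30.8% of all genes in either direction, and 3 lower than MC3T3 cells, against 9.41%. None of the 29 was called by limma in the co-culture, where 10 had an unadjusted p below 0.05, against 50.4% of all genes. Their median log2 difference was -0.18 for OP9 minus NIH3T3 cells, beside 0.16 over all genes. Pcgf5, a subunit of Polycomb repressive complex 1, read 48.2 and 58.2 in OP9 cells, 1644 and 1746 in NIH3T3 cells, and 429 and 450 in MC3T3 cells (adjusted p = 7.38e-09 for OP9 against NIH3T3 cells from limma). Kdm2b, which guides that complex to CpG islands, stood 4.93-fold above NIH3T3 in OP9 cells (adjusted p = 6.57e-06 from limma). Of 14 Trithorax and H3K27 demethylase genes tested, OP9 cells had 3 lower than NIH3T3 cells and none higher, against 10.3% and 20.5% of all genes, with a median log2 difference of -0.63 beside 0.16. They were Mllt3, Psip1 and Kmt2a, the last of which encodes the methyltransferase MLL1 that maintains Hox expression, at 183 and 163 in OP9, 596 and 507 in NIH3T3, and 181 and 192 in MC3T3 cells (3.18-fold between OP9 and NIH3T3 cells, adjusted p = 2.23e-06 from limma).

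Retinoic acid switches on Hox genes of low number in the embryo. Of 8 tested genes of its pathway, OP9 cells had 1 higher and 2 lower than either of the other lines, against 30.8% of all genes called in either direction for NIH3T3 and 19.9% for MC3T3 cells. The median log2 difference of the 8 was -0.35 for OP9 minus NIH3T3 cells and 0.30 for OP9 minus MC3T3 cells, beside 0.16 and 0.03. In the co-culture 2 of the 8 were lower with 230-238, against 2.97% of all genes. They were Dhrs3, a retinal reductase, at 2.85-fold (adjusted p = 7.72e-06 from limma), and Rdh10, which makes retinal from retinol, at 2.33-fold (adjusted p = 3.64e-05 from limma). Crabp2, a protein that carries retinoic acid to the nucleus, read 2829 and 3178 in MC3T3 cells, 27.9 and 28.8 in OP9 cells, and 90.1 and 100.004 in NIH3T3 cells. Cyp26b1, which breaks retinoic acid down, stood 13.5-fold above OP9 in MC3T3 cells (adjusted p = 3.27e-07 from limma). Of 13 tested genes that flank the Hox clusters, OP9 cells had 2 higher than NIH3T3 cells, against 20.5% of all genes, and 3 higher and 1 lower than MC3T3 cells, against 10.5% and 9.41%. The median log2 difference of the 13 was 0.48 and 0.50, beside 0.16 and 0.03. None of the flanking genes was called in the co-culture, where 6 had an unadjusted p below 0.05 in limma, against 50.4% of all genes.

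Other homeodomain, forkhead and T-box factors also mark regions of the body. Of 26 tested, OP9 cells had 11 higher and 2 lower than NIH3T3 cells, and 6 higher and 7 lower than MC3T3 cells, while MC3T3 cells had 12 higher and 4 lower than NIH3T3 cells. Over all genes 30.8%, 19.9% and 27.4% were called in these comparisons, and the median log2 difference of the 26 was 0.72, -0.14 and 0.63, beside 0.16, 0.03 and 0.12. Alx1, a factor of the cranial neural crest, read 466 and 500.4 in MC3T3 cells and 10.4 to 13.3 on the other 6 arrays, a 40.9-fold difference from OP9 cells (adjusted p = 2.06e-08 from limma). Six2, which acts in the kidney, the face and the skull base, read 1016 and 1183 in MC3T3, 115 and 129 in OP9, and 33.5 and 55.8 in NIH3T3 cells. MC3T3 cells were highest for both factors and lowest for Foxc1, another factor of the list. Foxc1 read 465 and 504 in MC3T3, 3626 and 3881 in OP9, and 848 and 817 in NIH3T3 cells. Dlx5, a factor of the jaw and of bone, read 794 and 841 in OP9, 522 and 667 in MC3T3, and 32.2 and 25.6 in NIH3T3 cells, with both NIH3T3 arrays far below the rest. Foxf2, a factor of the gut wall and the palate, read 349 and 394 in NIH3T3 cells and 28.7 or below in the others. In the co-culture 1 of the 26 was higher and 3 lower, against 2.71% and 2.97% of all genes, among them Irx3, at 447 and 524 with 230-238 against 1749 and 1839 (3.71-fold, adjusted p = 0.000579 from limma).

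**Figure D5:**
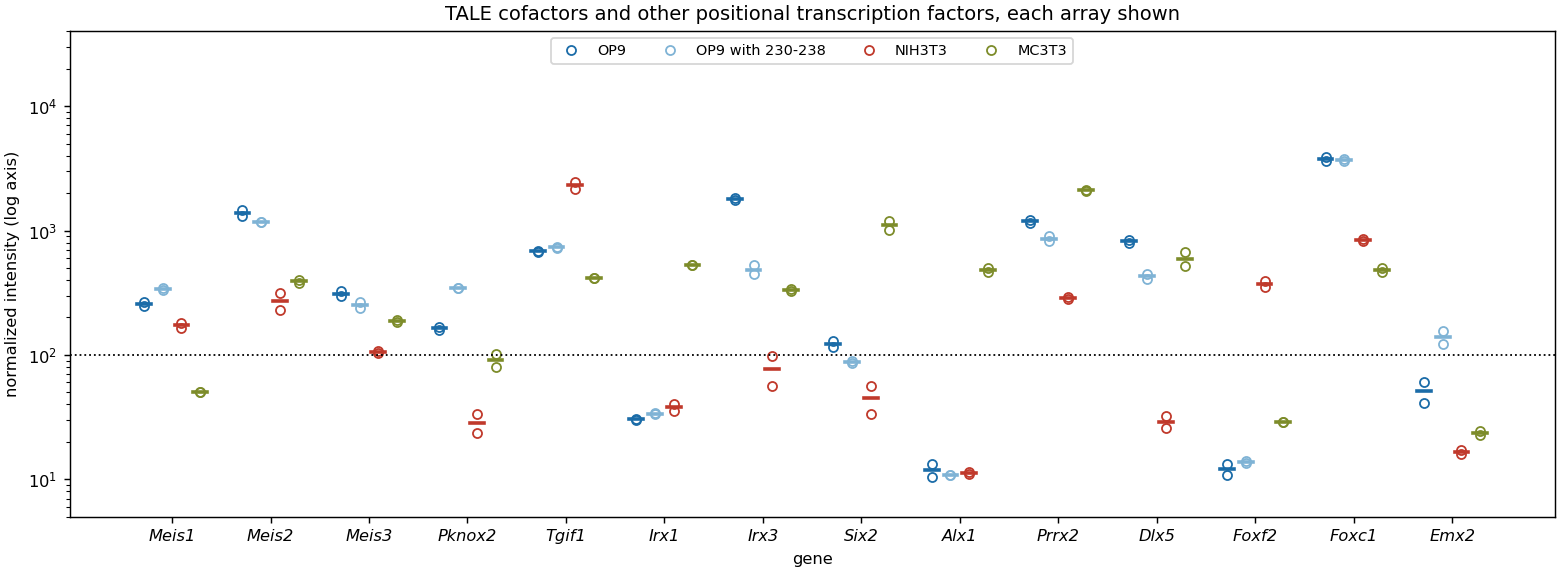
Normalized intensity on a log axis of TALE cofactors and other positional transcription factors, with a circle for each array, a bar for the mean of the 2 arrays and a dotted line at 100. Alx1 lies at 466 and 500.4 in MC3T3 cells and at 13.3 or below elsewhere, Foxf2 at 349 and 394 in NIH3T3 cells and at 28.7 or below elsewhere, and Irx3 is lower in OP9 cells with 230-238 than without.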

How the data were processed

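Total RNA of OP9 cells, OP9 cells with 230-238, NIH3T3 cells and MC3T3 cells was measured on Affymetrix Mouse Genome 430 2.0 arrays. The authors deposited normalized intensities on a linear scale for 45101 probe sets. RMA Express, affylmGUI and dChip are named in the methods, but not which of them wrote these values. Of the probe sets, 34958 had 1 symbol in the platform annotation, 932 had several and 9211 had none, and the last 2 kinds were not named. The log2 of each value was used without a pseudocount, and the probe set of highest mean log2 stood for a gene. Group means of all 8 arrays were fitted with lmFit, contrasts.fit and eBayes of limma 3.58.1 in R 4.3.3, and the Benjamini-Hochberg adjustment ran over the 10084 genes that reached 100 on 2 or more arrays. The fit was tested on simulated data. The number of arrays limits the precision.

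The members and the gene lists were chosen with earlier results of these data known. Every Hox gene with at least 100 on both arrays of a group was named with its values, and from the other lists at most 4 called genes a comparison with the largest fold and no overlap of arrays. Lists of 19 pre-B and leukocyte, 8 macrophage, 7 endothelial, 10 stromal and adipocyte precursor, 9 osteoblast and 8 fibroblast markers served as checks of the cells. Each group expressed 1 macrophage marker of 8 and at least 7 fibroblast markers of 8. The macrophage marker was not the same gene in all groups, as Lyz2 was expressed in MC3T3 but not in NIH3T3 cells. Alternatives were other filters, normalizations, a pseudocount, a floor, other choices of probe set, another prior, the replicate number as a block and leaving out each array.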

Additional observations from a re-analysis of the deposited data

How the results depend on the processing

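Among the recalculated differences of the 9 tested Hox genes, at the same minimum fold and where the gene was still tested, 618 kept their direction and call, 11 lost the call, 1 gained it and none turned direction. Where 1 array was left out, the lone array was assumed to vary like those of the other groups. The number of Hox genes called between OP9 and NIH3T3 cells was 3 to 6 with 1 array left out. It was 3 without either NIH3T3 array, since Hoxb13, Hoxd8 and Hoxd9 then no longer reached 100 on 2 arrays and were not tested. Between MC3T3 and NIH3T3 cells it was 5 to 8, for the same reason, with 5 also when values under 100 were raised to 100 and with the probe sets of a gene averaged. Between OP9 and MC3T3 cells 3 to 4 genes were called with 1 array left out, 7 with no filter, where Hoxa4 was added as higher and Hoxb6 and Hoxc13 as lower in OP9 cells, and 2 with the mean of the probe sets. No filter gave 8 genes between OP9 and NIH3T3 cells, with Hoxb2 added as higher and Hoxb6 as lower in OP9 cells, and 10 between MC3T3 and NIH3T3 cells, with Hoxc13 added as higher and Hoxa4 as lower in MC3T3 cells. In the co-culture 0 genes were called in every refit with 1 array left out, and 2, Hoxa7 and Hoxa10, with no minimum fold. The call of Hoxa10 between OP9 and MC3T3 cells was also lost with quantile normalization, at a log2 difference of 0.98, and with a pseudocount of 16, at 0.96.

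Expressed Hox genes numbered 11 in OP9 cells, 11 with 230-238, 13 in NIH3T3 cells and 8 in MC3T3 cells at a level of 50 on both arrays, and 3, 3, 5 and 0 at a level of 200. With the replicate number as a block the counts of called genes were 6 for OP9 and NIH3T3, 4 for OP9 and MC3T3, 8 for MC3T3 and NIH3T3 and 0 for the co-culture, as without it. Samples with the same number deviated together with correlations of -0.00, 0.18, 0.02 and 0.03 in these comparisons, so the numbers were not taken to pair the arrays. A probe set near the lowest values of an array gives folds that depend on the background.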

Other observations

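Some probe sets of the Hoxd cluster carry another symbol or 2 symbols and were therefore not among the 48. Several of them were also highest in NIH3T3 cells. The antisense transcript Hoxd3os1, by probe set 1460056_at, read 203 and 231 in NIH3T3 cells, 15.3 and 19.1 in OP9 cells, 17.8 and 14.3 with 230-238, and 11.6 and 12.2 in MC3T3 cells. Another probe set of Hoxd3os1, 1430263_at, read 16.5 to 21.0 on all 8 arrays, with the lines overlapping. The probe set 1421537_at, assigned to both Hoxd4 and Hoxd3, read 110 and 84.8 in NIH3T3 cells and 24.4 to 35.9 on the other arrays. Another with the same 2 symbols, 1450209_at, read 75.2 and 100.3 in NIH3T3 cells and 17.4 to 25.6 on the other arrays. The antisense transcript Hoxa11os read below 21 on all arrays with both of its probe sets. These probe sets were looked at after the values of the Hox genes had been seen, and they are given as values.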
